A study of Mus musculus with 6 samples.

Results

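Genes that occupy at least 100 kb of the genome were examined among the genes listed as changed in the hippocampus of mice given CI-994, an inhibitor of class I histone deacetylases, during the extinction of a fear memory. A gene belonged to the group when its locus in the deposited table, end minus start, was 100 kb or more, when it was not on the Y chromosome, and when it was not one of 24 genes left out by name. Of the 475 genes in the table, 103 met this rule. A further 19 of the named genes and 1 Y-linked gene also had loci of that length. The genes with shorter loci used for comparison were the 346 that were neither Y-linked nor left out by name. The rule used length and names but no expression value.

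CI-994 mice (3) received the inhibitor at 30 mg/kg every day, and vehicle mice (3) received its vehicle. All were C57Bl/6 mice aged 4 months, and all had undergone contextual fear conditioning, re-exposure to the context to recall the memory, and spaced extinction training. The hippocampus of one hemisphere was taken whole, 1 h after the last extinction session, and its total RNA was sequenced. The table held 1 value in arbitrary units for each gene and group, with the 3 libraries of a group already combined, so no spread between mice, no sequencing depth and no test across mice could be given here. Any p-value printed for a gene is from the authors' deposited table. Directions are the log2 ratio of the labelled CI-994 value over the labelled vehicle value. The deposited log2 column has the opposite sign in all 475 genes, against its own header, and every direction below turns around if the group labels rather than that column are exchanged.

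Long genes owe their length to introns, since their exons take up a small part of the locus, and RNA polymerase II needs far longer to cross them than to cross a short gene. In the brain many of them encode cell adhesion molecules, ion channels, guidance receptors and signalling enzymes of neurons. Histone deacetylases remove acetyl groups from histone tails, including those of transcribed gene bodies. The 103 genes here were protein-coding in all cases by the GENCODE M21 annotation, with a median annotated span of 199 kb, a median summed exon length of 8.60 kb and a median of 16 exons in the transcript with the most exons. Exons made up a median of 3.97% of the span. In the 345 annotated genes with shorter loci, the median span was 19.0 kb, the summed exon length 4.28 kb and the exon share 23.6%.

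Most long-locus genes were lower in CI-994 mice. Of the 103 genes, 79 were lower and 24 higher, that is 76.7% lower and 23.3% higher, whereas 58.1% of all 475 genes in the table were lower and 41.9% higher. Among the 346 genes with shorter loci, 181 were lower and 165 higher (52.3% and 47.7%). The median log2 ratio was -0.42 over the long-locus genes, -0.34 over the whole table and -0.31 over the genes with shorter loci. These counts describe a table that holds changed genes only, and an excess of lower over higher long loci was already known when the group was formed, so it is not offered as a test. In whole-tissue RNA, fewer cells of a type and less RNA per cell cannot be told apart.

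The groups differed in transcripts of the sex chromosomes. Ddx3y and Uty, both on the Y chromosome, had 0.0503 and 0.00821 units in CI-994 mice, against 7.73 and 2.12 units in vehicle mice. Xist, which coats the inactive X chromosome, had 25.3 units in CI-994 mice and 8.46 in vehicle mice. Of the 7 X-linked long-locus genes 4 were higher (57.1%), Htr2c, Maob and Hs6st2 among them, and 3 lower, Gpc4, Nhsl2 and Diap2. Among X-linked genes with shorter loci, 7 of 9 were higher (77.8%), Xist itself being 1 of the 7, so higher X-linked genes were not particular to long loci. Of the 96 autosomal long-locus genes, 20 were higher (20.8%). The sex of the animals is not among the labels used here, and the part of this difference in the values of the long-locus genes was not tested.

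**Figure D1:**
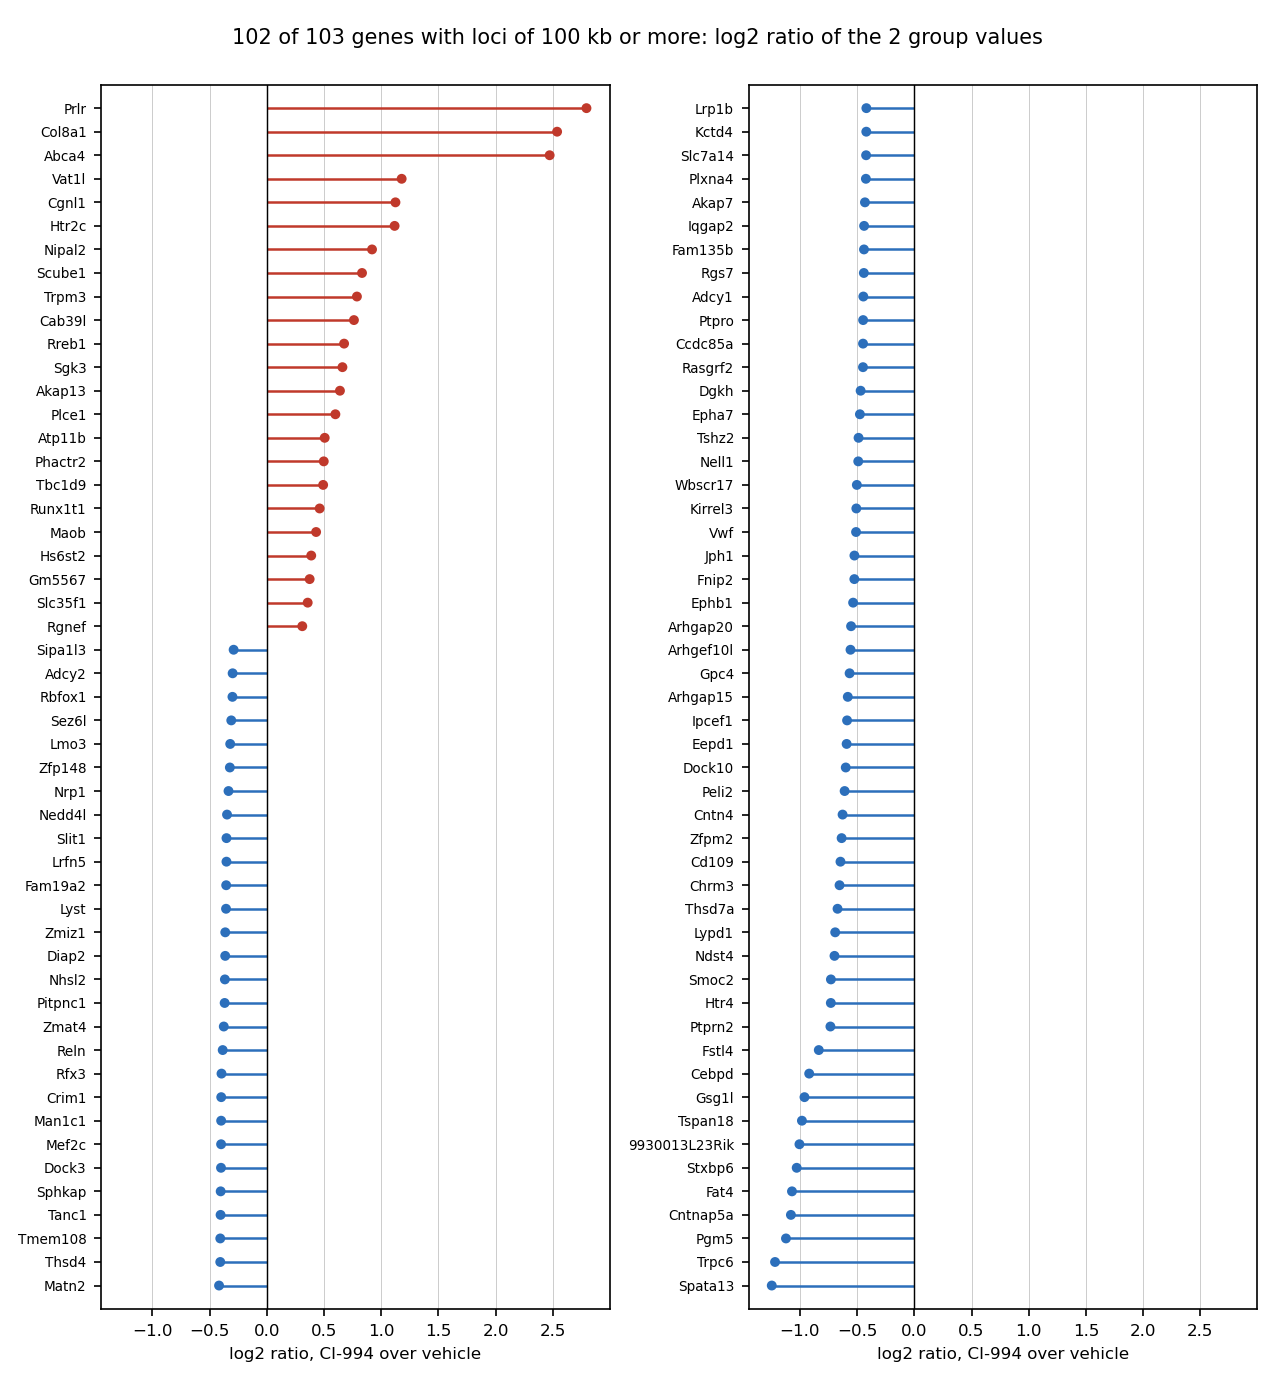
Log2 ratio of the CI-994 over the vehicle value (x axis) for 102 of the 103 genes (y axis, sorted from the highest ratio at the top left to the lowest at the bottom right); red marks 23 of the 24 genes higher and blue the 79 genes lower in CI-994 mice, 1 value per group without error. Prlr, Col8a1 and Abca4 stand above 2 with no pseudocount, and the decreases reach -1.25.

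The changes were modest in size. The lower genes had a median log2 ratio of -0.45 (1.36-fold lower) and the higher genes one of 0.67 (1.59-fold higher). Over the whole table the corresponding medians were -0.50 and 0.82. A difference of at least 2-fold was present in 13 long-locus genes, 6 higher and 7 lower, which is 12.6% of them, against 24% of all listed genes. Of the 19 genes with loci of that length left out by name, 31.6% differed by at least 2-fold, 5 higher and 1 lower. The sizes given here therefore describe the 103 genes and not every long locus in the table. A p-value up to 0.001 in the authors' deposited table belonged to 25 of the 103 (24.3%), against 25.9% of all listed genes. Those 25 comprised 10 higher and 15 lower genes. At the other end, 45 of the 103 p-values (43.7%) lay between 0.02 and 0.05, compared with 38.1% over the table.

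The largest increases were in 3 genes that were below 1 unit in vehicle mice. Prlr, the prolactin receptor, was at 3.98 units in CI-994 mice and 0.574 units in vehicle mice (6.93-fold, log2 ratio 2.79), and its p-value was listed as 0 in the authors' deposited table. Col8a1, a chain of the short-chain collagen type VIII, was at 2.97 units in CI-994 mice and 0.512 units in vehicle mice (log2 ratio 2.54). Abca4, a lipid-transporting ATPase known from photoreceptors, was at 1.85 units in CI-994 mice and 0.334 units in vehicle mice (log2 ratio 2.47). The next log2 ratio in the group was 1.18. Because the vehicle values were low, these ratios depended on the scale: with a pseudocount of 1 unit they were 1.66 for Prlr, 1.39 for Col8a1 and 1.1 for Abca4, and Abca4 was then close to Vat1l at 1.07. In mm9 coordinates Prlr lies on chromosome 15 from 10106992 to 10266775.

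Among genes that reached 1 unit in both groups, the largest increase was that of Vat1l, a relative of the vesicle protein VAT-1, at 15.7 units in CI-994 mice and 6.92 in vehicle mice (log2 ratio 1.18, p = 4.43e-09 in the authors' deposited table). Cgnl1, which encodes the junction protein paracingulin, was at 4.19 units in CI-994 mice and 1.92 in vehicle mice (1.12). Htr2c, the serotonin 2C receptor, was at 17.8 units in CI-994 mice and 8.21 in vehicle mice (1.12). All 3 were more than 2-fold higher. Smaller increases were those of Scube1, a secreted and membrane-bound EGF-domain protein (log2 ratio 0.83), Trpm3, a calcium-permeable channel (0.79), Cab39l, a scaffold of the kinase LKB1 (0.76), and the zinc finger protein Rreb1 (0.67). The kinase Sgk3 (0.66), the kinase anchor and exchange factor Akap13 (0.64), the phospholipase Plce1 (0.60, or 0.36 with a pseudocount of 1 unit) and the flippase Atp11b (0.51) were also among the 12 largest.

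Without a pseudocount, the largest decrease was that of Spata13, a Rac and Cdc42 exchange factor also known as Asef2, at 2.11 units in CI-994 mice and 5.01 in vehicle mice (log2 ratio -1.25, p = 1.92e-07 in the authors' deposited table). Stxbp6, or amisyn, which binds SNARE proteins of vesicle fusion, was at 18.4 units in CI-994 mice and 37.5 in vehicle mice (-1.03), with the smallest p-value of the lower genes, 1.06e-10 in the same table. Trpc6, a diacylglycerol-activated cation channel, was at 2.15 units in CI-994 mice and 5.00 in vehicle mice (-1.22). With a pseudocount of 1 unit Stxbp6, at -0.99, came before Spata13, at -0.95. Without one, each of these 3 genes had less than 0.5 of its vehicle value in CI-994 mice. So did Cntnap5a, a contactin-associated protein (-1.08, or -0.69 with that pseudocount), and Fat4, a giant protocadherin of planar cell polarity (-1.07). The hyaluronan-binding protein gene 9930013L23Rik, now named Cemip, was at 1.69 units in CI-994 mice and 3.40 in vehicle mice (-1.0). Tspan18, a tetraspanin (-0.98), Gsg1l, an auxiliary subunit of AMPA receptors (-0.96), the transcription factor Cebpd (-0.92), the follistatin-like Fstl4 (-0.83), Ptprn2 (-0.73) and the serotonin receptor Htr4 (-0.73) followed. Pgm5, a phosphoglucomutase-like protein of cell junctions, was also 2-fold lower (-1.12), at 0.744 units in CI-994 mice and 1.62 in vehicle mice.

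**Figure D2:**
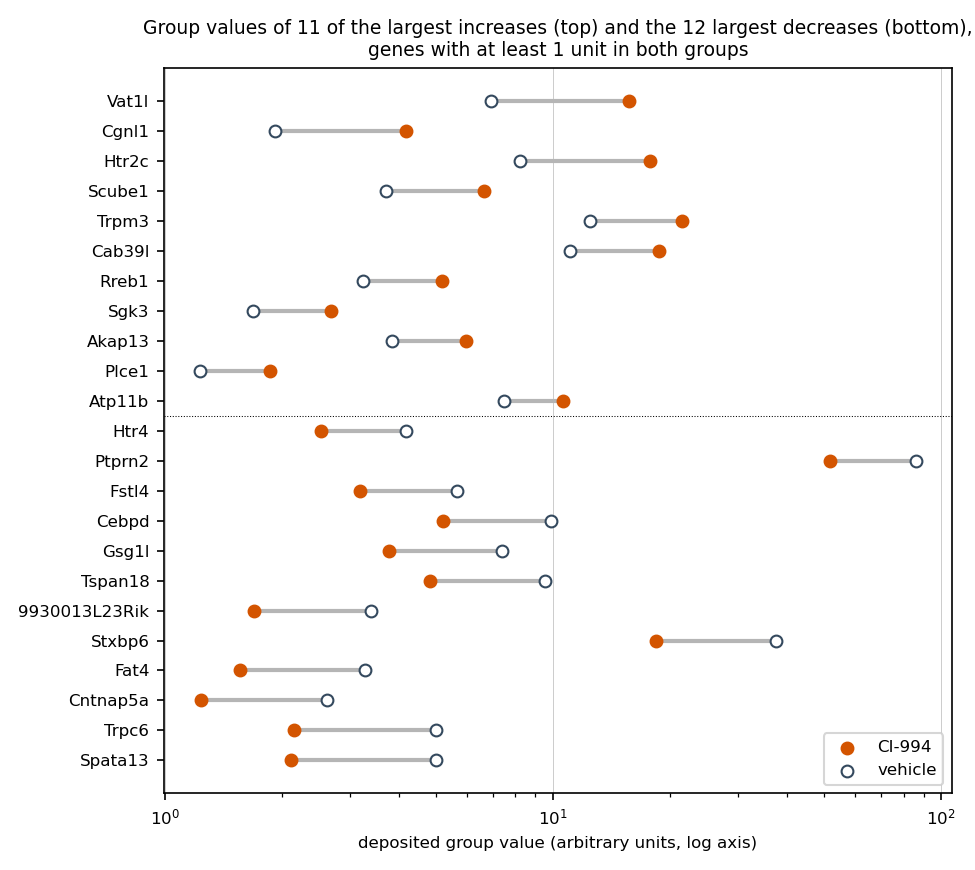
Deposited group values in arbitrary units (x axis, log scale) for 11 of the 12 largest increases (above the dotted line) and the 12 largest decreases (below it) with at least 1 unit in both groups; filled points are CI-994, open points vehicle, each 1 value per group. The widest gaps are those of Spata13 and Trpc6 among the decreases and of Vat1l and Cgnl1 among the increases.

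Choroid plexus epithelium, which makes cerebrospinal fluid, can be a further source of RNA in hippocampal dissections. The table listed 9 of its 10 markers, each of them higher, with log2 ratios from 1.54 to 3.75. Their summed value was 498 units in CI-994 mice and 96.5 in vehicle mice. Enpp2 alone made up 377 units of that sum in CI-994 mice and 75.3 in vehicle mice. Ttr, its defining transcript, was not among the listed genes. Prlr is one of the 10 markers, and Htr2c and Trpm3 are known to be strongly expressed in that epithelium. Prlr, Col8a1, Htr2c and Trpm3 were all higher and were picked after their values were seen. Leaving them out could therefore only lower the share of higher genes, so it tests nothing about this tissue. Without them 20 of 99 long-locus genes were higher (20.2%). Dentate granule cells were represented by 6 of 7 markers, each of them lower, with a summed value of 52.0 units in CI-994 mice and 143 in vehicle mice. The 5 markers of CA1, CA2 and CA3 in the table, of 9, were lower as well. The general neuronal, oligodendrocyte and microglial markers looked for were not listed, and of the astrocyte ones Aqp4 was, at 37.2 units in CI-994 mice and 47.2 in vehicle mice. The part of these cell types in the values of the long-locus genes was not tested.

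The DNA just before the annotated start is shown for the 2 largest increases and the 2 largest decreases among the members that had a deposited p-value up to 0.001 and 1 start site in the RefSeq promoter table, to place the genes at their transcription start. No readout was made at promoters, so the letters are context and not a result. Each run is the 250 bases before the start in RefSeq's GRCm38.p6, 5′ to 3′ on the strand of the gene, and capitals mark CG dinucleotides. Col8a1 is chr16:57754738-57754987 on the minus strand, Abca4 chr3:122044210-122044459 on the plus strand, Trpc6 chr9:8543892-8544141 on the plus strand and Fat4 chr3:38886690-38886939 on the plus strand.
Col8a1: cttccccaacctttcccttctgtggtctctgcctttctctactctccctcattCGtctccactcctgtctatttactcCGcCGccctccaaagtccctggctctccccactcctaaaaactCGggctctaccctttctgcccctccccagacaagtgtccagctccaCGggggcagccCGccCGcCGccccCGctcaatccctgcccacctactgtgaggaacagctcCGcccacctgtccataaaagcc
Abca4: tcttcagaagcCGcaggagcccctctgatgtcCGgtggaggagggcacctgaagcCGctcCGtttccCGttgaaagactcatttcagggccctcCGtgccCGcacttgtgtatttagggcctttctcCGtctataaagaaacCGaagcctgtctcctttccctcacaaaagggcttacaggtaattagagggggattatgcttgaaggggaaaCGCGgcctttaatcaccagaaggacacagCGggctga
Trpc6: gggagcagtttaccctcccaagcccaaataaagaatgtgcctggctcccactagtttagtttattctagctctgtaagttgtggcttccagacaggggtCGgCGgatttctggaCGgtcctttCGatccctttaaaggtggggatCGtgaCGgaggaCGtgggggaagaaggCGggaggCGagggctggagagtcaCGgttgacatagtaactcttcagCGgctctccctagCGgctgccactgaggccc
Fat4: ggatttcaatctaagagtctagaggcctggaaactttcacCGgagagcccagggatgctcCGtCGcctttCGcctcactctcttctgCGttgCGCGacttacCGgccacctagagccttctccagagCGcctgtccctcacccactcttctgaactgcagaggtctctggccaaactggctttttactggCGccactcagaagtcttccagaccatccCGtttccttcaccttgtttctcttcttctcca
The CG count was 10 for Col8a1, 12 for Abca4, 12 for Trpc6 and 11 for Fat4, so the counts of the 2 higher and the 2 lower genes overlapped. All 4 were below the median of 15 over the 77 long-locus genes with an entry. They were above the median of 6 over the 27016 RefSeq genes with an entry. The letters TATAAA, searched on both strands, were in the Abca4 window and not in the other 3, and 14.3% of those RefSeq genes had them in at least 1 window. A comparison of promoters over the whole group is void, since only 77 of the 103 genes (74.8%) had an entry, under the 80% set for such a check.

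Adhesion molecules and synaptic organisers hold synaptic partners together and set their identity. Of 122 such genes on a list, 9 were in the table, none of them higher, and 4 were long-locus genes. These were Cntnap5a, the immunoglobulin-domain proteins Cntn4 (2.62 units in CI-994 mice, 4.04 in vehicle mice, log2 ratio -0.63) and Kirrel3 (-0.51), and the leucine-rich repeat organiser Lrfn5 (-0.35). Their median log2 ratio was -0.57, and only Cntnap5a reached a deposited p-value below 0.01. Beside the counts of this list and those below, 76.7% of all 103 long-locus genes and 58.1% of the whole table were lower.

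Channels and transmitter receptors were mixed in direction. Of 120 listed genes 11 were in the table, 3 higher and 8 lower. Of the 5 in the long-locus group 2 were higher and 3 lower, and another 5 were left out by name. Both serotonin receptors in the group were G protein-coupled and had opposite directions, with Htr2c higher and Htr4, which raises cAMP, lower at 2.52 units in CI-994 mice and 4.18 in vehicle mice. The muscarinic receptor Chrm3 was at 18.9 units in CI-994 mice and 29.7 in vehicle mice (log2 ratio -0.65, p = 0.000116 in the authors' deposited table). The TRP channels were split as well, with Trpm3 higher at 21.5 units in CI-994 mice and 12.5 in vehicle mice, and Trpc6 lower. Of the 5 long-locus genes, 4 had a deposited p-value up to 0.001, the exception being Htr4. Outside the list, the auxiliary AMPA receptor subunit Gsg1l was at 3.79 units in CI-994 mice and 7.37 in vehicle mice. Lypd1, a GPI-anchored modulator of nicotinic receptors, was at 33.5 units in CI-994 mice and 54.1 in vehicle mice (-0.69).

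Axon guidance cues and receptors steer growing axons and remain in use at adult synapses. Of 55 listed genes 13 were in the table, 3 higher and 10 lower. All 5 in the long-locus group were lower, and 4 others were left out by name. The receptor tyrosine kinase Ephb1 was at 7.69 units in CI-994 mice and 11.1 in vehicle mice (log2 ratio -0.53), and Epha7, of the same family, at 51.7 units in CI-994 mice and 71.9 in vehicle mice (-0.48). The semaphorin receptors Plxna4 (-0.42) and Nrp1 (-0.34), which form complexes with each other, and the secreted repellent Slit1 (-0.35) were close together. No gene of the 5 had a deposited p-value up to 0.001, and their range, from -0.53 to -0.34, was narrow. That range holds for these 5 only. Among the genes left out by name, Sema5a, with a locus of 452 kb, had a log2 ratio of -1.03. Plxnc1, also left out by name, was higher, at 10.5 units in CI-994 mice and 8.34 in vehicle mice.

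Matrix proteins and the enzymes that build heparan sulfate gave 9 long-locus genes, 2 higher and 7 lower, from 103 listed genes of which 14 were in the table (6 higher, 8 lower). Beside Col8a1, the heparan sulfate 6-O-sulfotransferase Hs6st2 was higher, at 11.0 units in CI-994 mice and 8.44 in vehicle mice (log2 ratio 0.39). Ndst4, which starts sulfation of the same sugar chains, was lower at 5.29 units in CI-994 mice and 8.58 in vehicle mice (-0.70), and so was the glypican Gpc4, a core protein that carries them, at 12 units in CI-994 mice and 17.8 in vehicle mice (-0.57). The thrombospondin-domain genes Thsd7a (-0.67) and Thsd4 (-0.41) were both lower. Reln, the secreted guide of neuronal layering, was at 5.74 units in CI-994 mice and 7.50 in vehicle mice (-0.39), the matrilin Matn2 at -0.42 and the endothelial clotting factor Vwf at -0.51. The calcium-binding matrix protein Smoc2, which was not on the list, was at 9.34 units in CI-994 mice and 15.5 in vehicle mice (-0.73, p = 0.000452 in the authors' deposited table).

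Signalling enzymes were the largest list in the group. Of 167 listed kinases, phosphatases, second-messenger enzymes and small G protein regulators, 24 were in the table, 5 higher and 19 lower. The long-locus group held 16 of them, 3 higher and 13 lower, where 76.7% of all 103 long-locus genes were lower. The median log2 ratio of the 16 was -0.44. Ptprn2, a phosphatase-like protein of dense-core vesicles also called phogrin, was at 51.8 units in CI-994 mice and 86.1 in vehicle mice (p = 6e-07 in the authors' deposited table), with a locus of 851 kb. Both adenylyl cyclases with long loci, which make cAMP, were lower, while Adcy6, another one in the table with a locus of 17.6 kb, was higher at 8.83 units in CI-994 mice and 6.39 in vehicle mice. Adcy1, the calcium-stimulated one, was at 115 units in CI-994 mice and 156 in vehicle mice (-0.45), and Adcy2 at 34.8 units in CI-994 mice and 42.9 in vehicle mice (-0.30).

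The signalling list also held exchange factors and GTPase-activating proteins of small G proteins, which set actin and spine shape. Dock10 was at 8.42 units in CI-994 mice and 12.8 in vehicle mice (log2 ratio -0.60, p = 0.000297 in the authors' deposited table), and Arhgap20 at 11.3 units in CI-994 mice and 16.6 in vehicle mice (-0.55, p = 0.000642 in that table). Arhgap15 (-0.58), Rasgrf2 (-0.45), Dock3 (-0.40) and Sipa1l3 (-0.29) were lower with larger p-values. The diacylglycerol kinase Dgkh (-0.47), the receptor phosphatase Ptpro (-0.45), the G protein regulator Rgs7 (-0.44) and the kinase anchor Akap7 (-0.43) were lower too. The 3 higher long-locus genes of the list were Akap13, Sgk3 and Plce1. Akap13 was at 5.98 units in CI-994 mice and 3.84 in vehicle mice (p = 0.000182 in the authors' deposited table). Rgnef, an exchange factor outside the list and now named Arhgef28, was slightly higher (0.31).

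Of 127 listed transcription factors and chromatin genes 13 were in the table, 3 higher and 10 lower, and 5 had long loci. Mef2c, an activity-regulated factor that limits synapse number, was at 22.6 units in CI-994 mice and 29.8 in vehicle mice (log2 ratio -0.40). Tshz2 (-0.49), the ciliary gene regulator Rfx3 (-0.40) and Lmo3 (-0.32) were lower. Runx1t1, a corepressor that recruits histone deacetylases, was the only higher one, at 6.96 units in CI-994 mice and 5.05 in vehicle mice (0.46). None of the 5 had a deposited p-value up to 0.001. The RNA-binding splicing factor Rbfox1 was the only long-locus gene of 39 RNA-binding proteins, at 126 units in CI-994 mice and 156 in vehicle mice (-0.30), and its deposited p-value lay just under 0.05.

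The remaining lists had few long-locus genes. Of 91 growth factor, hormone and cytokine genes 8 were in the table (3 higher, 5 lower), and 2 of them were left out by name. The 2 in the long-locus group were Prlr and Lrp1b. Lrp1b, an LDL-receptor relative, was at 2.85 units in CI-994 mice and 3.81 in vehicle mice (log2 ratio -0.42). Of 156 cytoskeletal and membrane traffic genes 4 were in the table (1 higher, 3 lower), among them Stxbp6, the formin Diap2 (-0.36) and the actin and phosphatase regulator Phactr2 (0.50). Of 115 transporters and metabolic enzymes 21 were in the table, 12 higher and 9 lower, the only one of the 10 lists with more higher than lower genes. Of their 4 long-locus genes 3 were higher, among them Abca4 and the orphan carrier Slc35f1 (0.36), and the lysosomal amino acid transporter Slc7a14 was lower, at 28.6 units in CI-994 mice and 38.3 in vehicle mice (-0.42). The flippase Atp11b, which was not on the list, was at 10.6 units in CI-994 mice and 7.49 in vehicle mice.

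On none of the lists were 49 long-locus genes, 11 higher and 38 lower, a share of 22.4% higher against 24.1% for the 54 genes on a list. Wbscr17, a mucin-type glycosyltransferase now named Galnt17, was at 47.8 units in CI-994 mice and 67.7 in vehicle mice (log2 ratio -0.50, p = 0.00058 in the authors' deposited table). The secreted protein Nell1 (-0.49), the surface protein Cd109 (-0.65), the junctophilin Jph1 (-0.52) and Sez6l (-0.31) were lower. The Rab regulator Tbc1d9 was at 25.2 units in CI-994 mice and 17.9 in vehicle mice (0.49), and Gm5567, now named Tmem178b, at 17.1 units in CI-994 mice and 13.2 in vehicle mice (0.37). Another 26 genes lay outside the rule for named genes, 24 of them lower, with log2 ratios from -1.12 for Pgm5 to 0.92 for Nipal2. They included, all lower, the GATA cofactor Zfpm2 (-0.64), the scaffold Iqgap2 (-0.44), the postsynaptic scaffold Tanc1 (-0.40), the PKA anchor Sphkap (-0.40), Crim1 (-0.40) and the ubiquitin ligase Nedd4l (-0.35). Maob, the monoamine oxidase B gene (0.43), was with Nipal2 the higher exception. The others, all lower and with log2 ratios between -0.61 and -0.32, were Peli2, Eepd1, Ipcef1, Arhgef10l, Fnip2, Ccdc85a, Fam135b, Kctd4, Tmem108, Man1c1, Zmat4, Pitpnc1, Nhsl2, Zmiz1, Lyst, Fam19a2 and Zfp148.

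Within the group the share of higher genes was smallest among the longest loci. From 100 to 150 kb, 12 of 34 genes were higher (35.3%), from 150 to 250 kb 5 of 28 (17.9%), from 250 to 500 kb 6 of 29 (20.7%), and from 500 kb on 1 of 12 (8.33%). That gene was Trpm3, at 851 kb. Below 100 kb the share was 40.3% from 50 to 100 kb and between 48.1% and 50.7% in each of the bands of shorter loci. With the genes left out by name put back, the 4 bands above 100 kb held 16 of 41, 8 of 34, 6 of 32 and 1 of 15 higher genes. The signed log2 ratio showed little relation to length within the group. Across the 103 genes Spearman's rank correlation of length with it was -0.13, and Pearson's r with log10 length was -0.20. These 2 values mix direction and size. Within the 79 lower genes Spearman's correlation was 0.10, and within the 24 higher genes it was -0.21. These are descriptions across genes that share the same 6 libraries and are not independent.

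**Figure D3:**
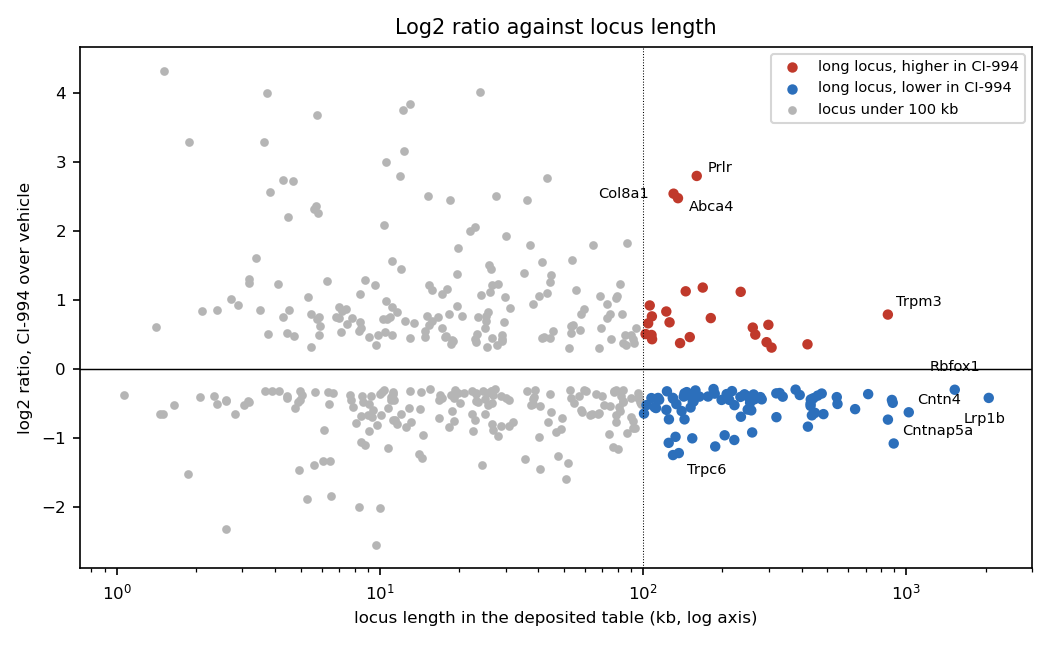
Log2 ratio of CI-994 over vehicle (y axis) against locus length in kb (x axis, log scale); red and blue points are the 103 long-locus genes higher and lower in CI-994 mice, grey points the 346 genes with loci under 100 kb, and the dotted line marks 100 kb. Beyond 500 kb only Trpm3 lies above 0, while on both sides of 0 a band is empty because the table lists changed genes only.

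The longest locus of the group was that of Lrp1b, 2057 kb on chromosome 2 from 40452292 to 42509118 (mm9). The genes left out by name, with loci up to 1612 kb, are not in this order. Rbfox1 followed with 1528 kb on chromosome 16 from 5884885 to 7412573, and Cntn4 with 1022 kb on chromosome 6 from 105627738 to 106649299. Cntnap5a (896 kb), Nell1 (888 kb) and Rasgrf2 (881 kb) came next. All 6 were lower, with log2 ratios between -1.08 and -0.30. Around the threshold of 100 kb, the loci just inside were Cd109 (101 kb), Atp11b (102 kb) and Jph1 (103 kb), and those just outside were Pitpnm2 (97.7 kb, log2 ratio -0.50), Ngef (97.0 kb, -0.48) and Prickle1 (96.8 kb, -0.42).

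The share of higher genes was also taken within bands of the listed value, the mean of the 2 group values, because it fell with that value in long and shorter loci alike. Under 5 units 10 of 24 long-locus genes were higher (41.7%), against 81 of 117 genes with shorter loci (69.2%). From 5 to 20 units it was 13 of 50 (26.0%) against 61 of 122 (50%), and from 20 units on 1 of 29 (3.45%) against 23 of 107 (21.5%). The long-locus share was the lower one in all 3 bands. The single higher gene from 20 units on was Tbc1d9. The median vehicle value of the 103 genes was 10.1 units. The sources used here do not say whether the units are scaled to transcript length, so these bands group genes by listed value only.

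**Figure D4:**
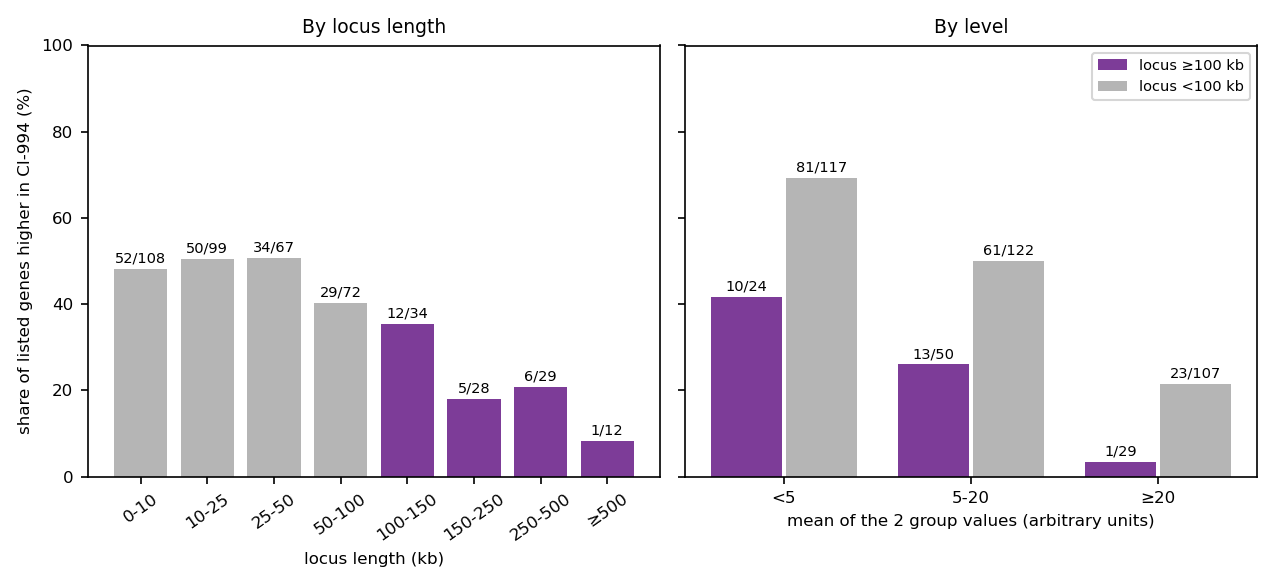
Share of listed genes higher in CI-994 mice (y axis, percent, from 0) by locus length in kb (left) and by mean of the 2 group values in arbitrary units (right); purple bars are long-locus genes, grey bars genes with loci under 100 kb, and the numbers give higher genes over all genes of the bar. The share is 8.33% in the longest band, and in each level band the purple bar is below the grey one.

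The deposited locus and the annotated gene were not always the same interval. In 85 of the 103 genes the locus length was within 10% of the gene's span in GENCODE M21, an annotation on the later build GRCm38, of which lengths and not positions were used. In 5 genes the locus was more than 1.5 times the span. All 5 were lower in CI-994 mice, as were 76.7% of the 103 genes, so this small count sets them apart in no way. Cebpd, a gene of 3.75 kb in the annotation, was listed with a locus of 260 kb, and Kctd4, of 11.2 kb, with 114 kb. Lypd1 (235 kb against 45.5 kb), Rasgrf2 (881 kb against 251 kb) and Fnip2 (222 kb against 112 kb) were the others. Conversely the listed loci of Gm5567 (138 kb against 382 kb) and Tshz2 (255 kb against 439 kb) were much shorter than the annotated genes. The annotated span was under 100 kb in 4 members, Arhgap20 (88.5 kb) beside Cebpd, Kctd4 and Lypd1. Without these 4, 24 genes were higher and 75 lower. Conversely, 10 genes with loci under 100 kb had an annotated span of 100 kb or more, 3 higher and 7 lower, and were not added to these counts.

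**Figure D5:**
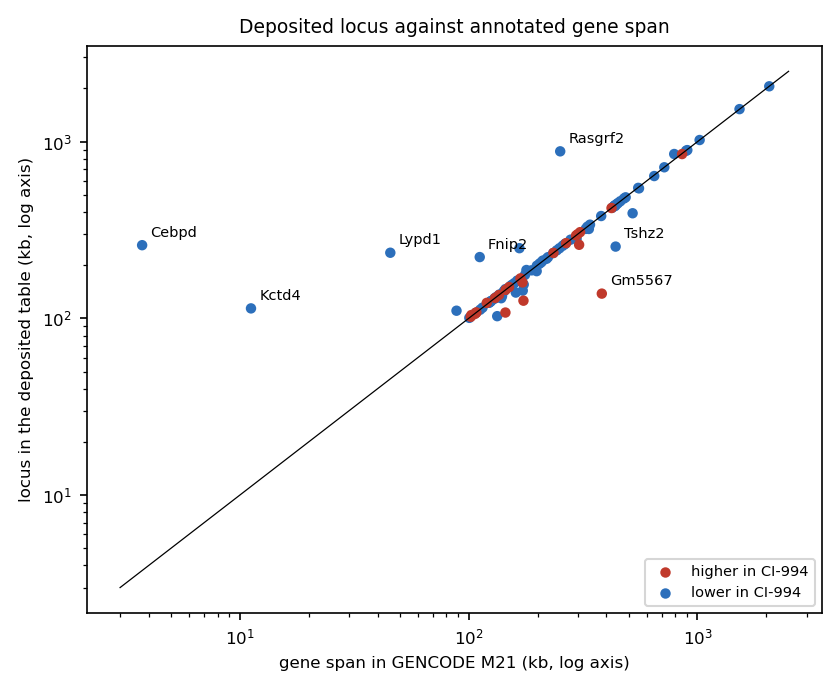
Locus length in the deposited table (y axis, kb, log scale) against the span of the gene in GENCODE M21 (x axis, kb, log scale) for 102 of the 103 genes; red and blue mark genes higher and lower in CI-994 mice, and the line marks equal lengths. Most points lie on the line, with Cebpd, Kctd4, Lypd1 and Rasgrf2 far above it.

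Long-locus genes were spread over 20 chromosomes, and their listed neighbours had both directions. There were 23 pairs of a long-locus gene with another listed gene less than 500 kb away, 9 with the same and 14 with opposite directions. Some genes, such as Dock3, were in several pairs. The share of agreement between listed genes at any distance was not taken, so the count says nothing particular about neighbours. The long-locus pairs among them were Gpc4, lower, with Hs6st2, higher, 371 kb apart on the X chromosome, and Nipal2, higher, with Matn2, lower, 137 kb apart on chromosome 15. The locus of Tspan18 ended 2 bases from that of Trp53i11, which was lower too (log2 ratio -0.57). The sources used here do not give the handling of strand in counting, so reads of these neighbours may not be separable.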

How the data were processed

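Whole-hippocampus RNA of 3 CI-994 and 3 vehicle mice had been sequenced. The submitters' processing notes name TopHat, Cuffdiff and mm9. Tool versions, annotation, normalisation, filters and use of strand were not given in the sources used here. For each group the deposited table gives 1 expression signal (arbitrary units, by its file header), with the libraries of a group combined by the authors. Its p-values are the authors' deposited ones and are not called adjusted; all 475 values lie below 0.05, and 6 are given as 0. How many genes the authors tested was not given in the sources used here. Its deposited log2 column equals vehicle over CI-994 within 0.0001 in all 475 genes, against its header.

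Log2 ratios were computed from the group values, CI-994 over vehicle, with no pseudocount (Python 3.11.15, numpy 2.4.6, pandas 2.3.3, scipy 1.17.1, matplotlib 3.10.9). Values per mouse and depth were not analysed here, so no test across mice was made; a gene counts as changed because it is in the table. Counts and medians of long-locus genes stand beside those of all listed genes. The assignment of genes and directions was tested on simulated data. Symbols were matched to RefSeq names (103 of 103, 6 through an older name). Of the 10 role lists, 4 symbols matched no gene. The members and lists were chosen with earlier results of these data known. Named genes were the 12 largest changes of each direction that reached 1 unit in both groups, genes with p up to 0.001, the 6 longest loci, the 4 highest vehicle values of each direction, members on a role list and the 3 loci on each side of 100 kb; others were picked after their values were seen. One member counted throughout is not reported here by name.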

Additional observations from a re-analysis of the deposited data

How the results depend on the processing

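No paired analysis was possible because the table holds 1 value per group, and for the same reason no mouse could be left out. The settings on the annotated span, the X chromosome, choroid plexus genes and the header were chosen after seeing the data. Of the counts of 24 higher and 79 lower genes, p up to 0.01 left 12 and 37, p up to 0.001 left 10 and 15, a threshold of 50 kb gave 53 and 122, 150 kb left 12 higher and 200 kb left 8 and 45, because each admits other numbers of genes. The percentage of higher genes, 23.3%, became 40% when p was limited to 0.001 (25 genes; 56.1% of all listed genes with such a p) and 15.1% at 200 kb or more. In the other settings it stayed between 17.4% and 30.3%. The median log2 ratio, -0.42, was -0.52 with p limited to 0.01, -0.60 with p limited to 0.001 and -0.39 with a pseudocount of 1. The median vehicle value, 10.1 units, was 7.37 units at p up to 0.001; the cause was not tested. Read by the header of the deposited log2 column, the share becomes 76.7% and the median 0.42 by construction. A pseudocount of 1 or 0.1 turned 0 of 77 named genes and moved 25 and 3 of them by over 0.1. Single genes rest on p-values that are not called adjusted, and neither depth nor replicate error was given for them.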
